A study of Mus musculus with 6 samples.

Results

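Leukocyte adhesion molecules are cell surface proteins that let white blood cells, stromal cells and matrix hold on to each other. The genes Vcam1, Icam1, Alcam, Cd44, Cd47, Ncam1 and Thy1 were followed in mouse embryonic fibroblasts (MEFs) treated with the inflammatory cytokine TNFα. They were chosen by gene symbol, 7 of 20275 protein coding genes in the expression table, and they took 14 of its 25684 coding rows. A gene with several RefSeq transcripts was represented by the transcript with the highest mean over all libraries. Cd44 had 6 transcripts, Ncam1 had 3, and the other genes had 1 each.

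Poly-A RNA of primary WT MEFs was sequenced as directional libraries before treatment and at 1.5, 6 and 24 hr of 20 ng/ml TNFα, to see how the RNAs of these cells respond to the cytokine. All cells came from littermate embryos 13.5 days old of the strain C57BL/6x 129 and had been passaged 4 times. For H3K4me3, a histone mark found at the starts of active genes, there was 1 ChIP-seq library and 1 input library of untreated MEFs. There was 1 RNA library for each time, so no difference below has a replicate check or a test. Each library has 2 value columns, R1 and R2, whose meaning is not stated. They were not treated as replicates, and their gap is given as the only measure of spread. This gap does not measure variation between libraries or cultures. Times called separate below differ by more than this gap and no more is meant. Levels are in deposited units, the authors' RPKM (reads per transcript length and library size) on a larger scale of their own.

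TNFα activates NF-κB, a transcription factor that many inflammatory genes need for induction. Vcam1 and Icam1 belong to the immunoglobulin superfamily and are textbook NF-κB targets. Vcam1 is the ligand of the integrin VLA-4 and Icam1 the ligand of the leukocyte integrins LFA-1 and Mac-1. Alcam binds the T cell surface protein CD6, and Cd44 is the main receptor for the matrix sugar hyaluronan. Cd47 binds SIRPα and thrombospondin and inhibits phagocytosis. Ncam1 is the neural cell adhesion molecule, and Thy1 is a lipid-anchored protein of fibroblasts, neurons and mouse T cells.

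The cells were checked against marker genes. Of 10 fibroblast markers, 9 were above 100 deposited units, the floor used throughout. Of 6 endothelial markers none was above it, the highest level of any was 3.88, and their summed levels ran from 2.29 to 6.93. None of 4 epithelial markers was above it, and Epcam was at 0 in every library. Of 4 neural markers 3 were listed, and of these Tubb3 was above the floor, with 93.3 units before treatment. Of 8 leukocyte markers 3 were above the floor, Laptm5 and the macrophage genes Cd68 and Csf1r, while the T cell gene Cd3e was at 0 in every library. The summed leukocyte markers stood at 3130 units before treatment and, in order of time, at 4080, 863 and 1720 after it. This sum was led by Laptm5, with 2150 units before treatment. Cd44 and Cd47 are also made by macrophages, and the part of such cells in the results was not tested. In bulk RNA, fewer cells of a type and less RNA per cell cannot be told apart.

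The libraries also differed over all genes. Among 6050 coding genes above the floor, the median log2 ratio of treated to untreated was 0.44 for 1.5 hr, -0.74 for 6 hr and 0.10 for 24 hr. The ratios followed the GC content of the transcripts. At 1.5 hr the median log2 ratio was 1.38 in the 20% of genes lowest in GC and -0.29 in the 20% highest, and at 24 hr it was 0.95 and -0.55. Ratios are therefore given as deposited, after subtracting the median of all genes (median centred), and after subtracting the median of genes of like GC in 20 bins (GC centred). Which of these comes from the cells and which from the libraries was not tested.

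The DNA ahead of Vcam1 and Icam1 is shown first, since these 2 genes had the highest ratios of the 7 at 1.5 and 6 hr. The search was for the letters GGNNNTTCC, the core of an NF-κB site, on both strands in the 300 bases before every annotated coding start of the mm9 genome. Of 35123 starts 18.5% held a match, and 24.0% of 19720 genes had it at 1 start or more. The annotation has 2 starts for Vcam1, 231 bp apart, and the inner one, at position 115832375 of chromosome 3, held a match 61 bp upstream and another 209 bp upstream. These 29-base stretches on the minus strand, at chr3:115832418-115832446 and chr3:115832566-115832594, have the match in capitals. Both lie between the bounds of the Vcam1 H3K4me3 peak.
Vcam1, 61 bp upstream: tccccttgaaGGGATTTCCctccgcctct
Vcam1, 209 bp upstream: ctgaaggtcaGGAAAAGCCagagatttat
The 300 bases ahead of the single Icam1 start, chr9:20820104-20820403 on the plus strand, held 2 matches, 173 and 104 bp upstream, of which the first reads as a match on both strands. Capitals mark these and the letters TATAAA 7 bp upstream. TATAAA was searched on the gene's own strand, in the 300 bases before the outer start only, and was found ahead of 9.37% of genes. It also lay 271 bp ahead of the outer Vcam1 start.
Icam1, upstream: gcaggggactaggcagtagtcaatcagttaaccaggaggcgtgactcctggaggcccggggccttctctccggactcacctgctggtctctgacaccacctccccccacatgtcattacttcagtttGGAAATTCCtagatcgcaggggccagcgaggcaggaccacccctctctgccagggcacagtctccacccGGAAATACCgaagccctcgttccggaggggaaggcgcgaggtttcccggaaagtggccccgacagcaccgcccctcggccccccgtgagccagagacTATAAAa
Alcam held a match 244 bp ahead of its outer start, and Ncam1 held one ahead of 2 inner starts. Ahead of the annotated starts of Cd44, Cd47 and Thy1 these letters did not occur, which says nothing of the factor itself. A match is a description of the letters and not a bound site.

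Vcam1 (NM_011693) stood at 46.2 deposited units in the untreated library (41.6 in R1 and 50.7 in R2). It reached 988 at 1.5 hr (871 and 1105), 222 at 6 hr (206 and 237) and 515 at 24 hr (455 and 575). All treated values lay above both untreated values, and no 2 times overlapped. The ratio to untreated was 21.4-fold at 1.5 hr, then 4.8-fold and, by 24 hr, 11.1-fold. In the order of log2 ratios among the 6050 genes it was number 13, 30 and 19 from the top. Its transcript has 44.4% GC, on the side that read higher at 1.5 and 24 hr. After GC centring the ratios were 8.59-fold, 5.48-fold and 6.14-fold. The deposited rise from 6 to 24 hr, 2.32-fold, was 1.19-fold after median centring and 1.05-fold after GC centring.

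Icam1 (NM_010493) stood at 57.1 units in the untreated library (54.95 in R1 and 59.3 in R2). It reached 781 at 1.5 hr (707 and 854), 225 at 6 hr (211 and 239) and 218 at 24 hr (205 and 230.0). The values at 6 and 24 hr overlapped, and all other times were separate. The ratio to untreated was 13.7-fold, 3.94-fold and 3.81-fold in order of time, and Icam1 was number 20, 37 and 150 from the top. Its transcript has 55.7% GC, and GC centring gave 12.9-fold, 7.30-fold and 4.31-fold.

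Vcam1 and Icam1 stood close before treatment and were furthest apart at 24 hr. On this scale per transcript length, the level of Vcam1 divided by that of Icam1 was 0.808 before treatment and, in order of time, 1.27, 0.986 and 2.36 after it. At 24 hr Vcam1 held 52.1% of its 1.5 hr level and Icam1 held 27.9%. The order of the ratios depended on the scaling. As deposited Vcam1 had the higher log2 ratio at every time, while after GC centring Icam1 was higher at 1.5 hr (3.70 against 3.10) and 6 hr (2.87 against 2.45) and lower at 24 hr (2.11 against 2.62).

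**Figure D1:**
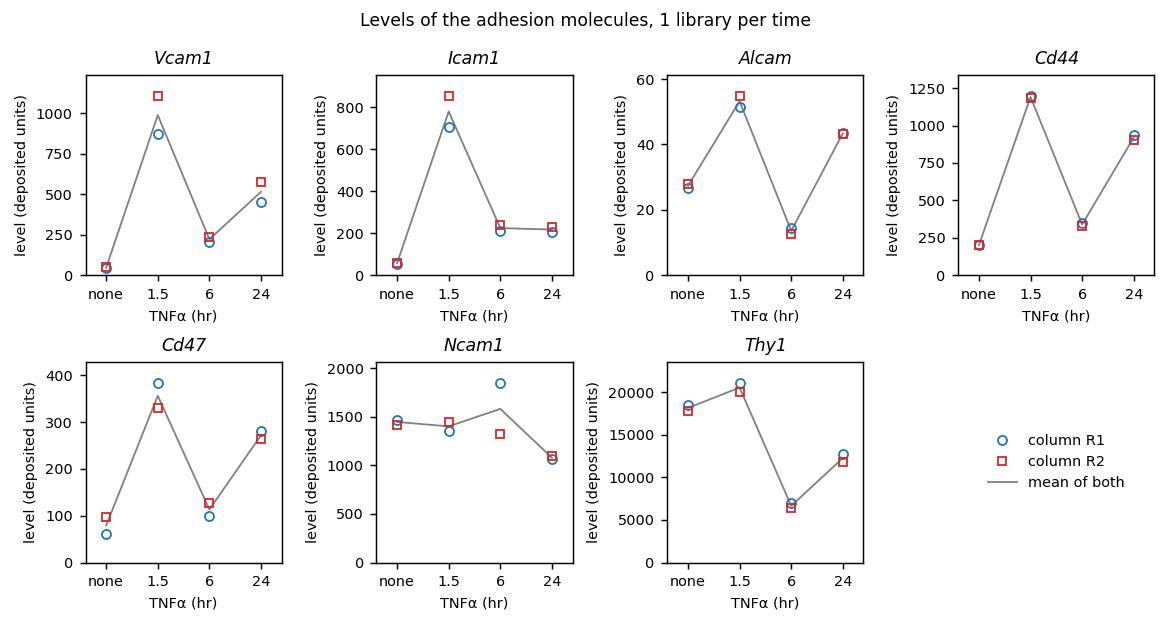
Levels of the 7 adhesion molecules in deposited units (vertical axis, from 0, scaled per gene) against hours of TNFα (horizontal axis, not to scale), with circles for column R1, squares for R2 and a line through their means, 1 library per time. Of the 7 genes 6 were highest at 1.5 hr as deposited, 4 after median centring and 3 after GC centring. The share of all coding genes highest at 1.5 hr was not counted, but their median log2 ratio was 0.44 there and -0.74 at 6 hr. As deposited Ncam1 was highest at 6 hr, where its R1 and R2 were 1845 and 1320.

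Cd44 (NM_001039151) stood at 201 units in the untreated library (202 in R1 and 201 in R2), 1191 at 1.5 hr (1197 and 1186), 339 at 6 hr (352 and 326) and 919.9 at 24 hr (939 and 901). The 4 times were separate, with a largest gap between R1 and R2 of 0.11 on the log2 scale. The ratio to untreated was 5.92-fold, 1.68-fold and 4.57-fold in order of time. The transcript has 44.5% GC, and GC centring lowered the ratios to 2.60-fold at 1.5 hr and 2.68-fold at 24 hr and raised that at 6 hr to 2.19-fold. The 6 Cd44 transcripts, which share most exons and therefore reads, moved together, with log2 ratios from 2.565 to 2.58 at 1.5 hr.

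Cd47 (NM_010581) stood at 79.1 units in the untreated library, with the widest gap of the members between the columns (60.6 in R1 and 97.65 in R2, 0.69 on the log2 scale). It reached 356 at 1.5 hr (383 and 330), 113 at 6 hr (99.75 and 127) and 272 at 24 hr (280 and 263). All 4 times were separate, the untreated R2 and the 6 hr R1 only narrowly. The ratio to untreated was 4.5-fold, 1.43-fold and 3.44-fold in order of time. Cd47 has 42.5% GC, the lowest of the members, and the genes of its GC bin had risen by a median log2 ratio of 1.42 at 1.5 hr. Relative to them it was 1.68-fold, 1.51-fold and 1.71-fold in order of time, below 2-fold at each time.

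Alcam (NM_009655) was low. It stood at 27.35 units in the untreated library (26.8 in R1 and 27.9 in R2), 53.2 at 1.5 hr (51.6 and 54.8), 13.6 at 6 hr (14.4 and 12.75) and 43.4 at 24 hr (43.42 and 43.35). The 4 times were separate, but Alcam did not reach the floor, and its 6 hr level stood for about 78 reads in R1. The log2 ratios were 0.96, -1.01 and 0.67 in order of time. GC centring, over genes with about its 44.0% GC, gave -0.36, -0.82 and -0.19, so that the direction at 1.5 and 24 hr turned. The 6 hr ratio passed 2-fold in the mean and in R2 but not in R1.

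Thy1 (NM_009382) was the most abundant member by far. It stood at 18140 units in the untreated library (18470 in R1 and 17820 in R2), number 47 among all coding genes. It was at 20530 at 1.5 hr (21030 and 20040), 6656 at 6 hr (6932 and 6380) and 12260 at 24 hr (12680 and 11840). The 4 times were separate. The log2 ratios were 0.18, -1.45 and -0.57, and the small one at 1.5 hr turned to -0.26 after median centring. The 6 hr value was 0.367 of the untreated level as deposited, 0.612 after median centring and 0.680 after GC centring. The log2 ratios of the summed fibroblast markers were 0.03, -1.02 and -0.68, a sum led by Col1a1, with 44000 of 77900 units before treatment. Without Col1a1, left out after its values were seen, the other 9 markers gave 0.71, -0.89 and 0.11. The summed leukocyte markers had 0.38, -1.86 and -0.86, and the part of either cell type in the Thy1 values was not tested. The level of Thy1 was 393 times that of Vcam1 in the untreated library and 20.8 times at 1.5 hr.

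Ncam1 (NM_001081445) varied least between times as deposited, though not after centring. It stood at 1447 units in the untreated library (1472 in R1 and 1421 in R2), 1402 at 1.5 hr (1356 and 1448), 1582 at 6 hr (1845 and 1320) and 1079 at 24 hr (1062 and 1096). The first 3 times overlapped, and the values at 24 hr lay below all others. The 3 listed neural markers summed to 224 units before treatment and, in order of time, to 305, 70.0 and 170.0 after it. At 1.5 hr Tubb3 went from 93.3 to 236 units, while Sox10 went from 36.3 to 22.0 and Gfap from 94.2 to 46.3. The part of neural cells in the Ncam1 values was not tested. The median log2 ratio of all genes was -0.74 at 6 hr, so median centring turned the Ncam1 log2 ratio of 0.13 into 0.87. Before centring R1 alone gave 0.33 and R2 alone -0.11. At 1.5 and 24 hr median centring gave -0.49 and -0.53. The GC-centred log2 ratios were -0.81, 0.85 and -0.79, a wider span than that of Thy1 or Alcam.

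The 3 Ncam1 transcripts did not move together. NM_001113204 followed the transcript above, with log2 ratios of -0.06, 0.10 and -0.43. NM_010875 stood at 487 units in the untreated library (447 in R1 and 528 in R2), 919 at 1.5 hr (851 and 986), 234 at 6 hr (225 and 242) and 597 at 24 hr (562 and 632). All 4 times of this transcript were separate. Its log2 ratios were 0.92, -1.06 and 0.29, the same sign in both columns at each time. The level of NM_001081445 was therefore 2.97 times that of NM_010875 before treatment and, in order of time, 1.53, 6.77 and 1.81 times after it. How reads in shared exons were split between the transcripts is not given in the sources used here.

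**Figure D2:**
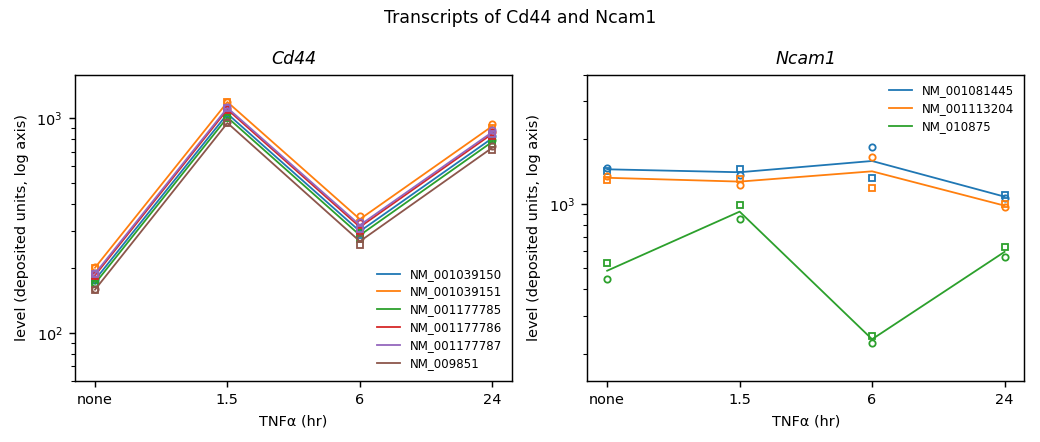
Levels in deposited units on a log axis against hours of TNFα for the 6 Cd44 transcripts (left) and the 3 Ncam1 transcripts (right), with lines through the means of R1 (circles) and R2 (squares). The Cd44 transcripts run in parallel, while Ncam1 NM_010875 rises to 919 at 1.5 hr and falls to 234 at 6 hr beside 2 flatter transcripts.

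Counted over the members, 4 of 7 were at least 2-fold higher at 1.5 hr (Vcam1, Icam1, Cd44 and Cd47), beside 29.8% of all coding genes above the floor, and none was at least 2-fold lower, beside 7.97%. At 6 hr Vcam1 and Icam1 were higher, beside 1.83%, and Thy1 and Alcam were lower, beside 31.5%. Alcam is counted here although it is itself below the floor that the background genes passed, and Vcam1, Icam1 and Cd47 passed that floor through their treated libraries. At 24 hr the 4 genes of 1.5 hr were again higher, beside 16.8%, and none was lower, beside 12.8%. From 1.5 to 6 hr 6 members, all but Ncam1, fell at least 2-fold, beside 64.0% of genes. From 6 to 24 hr Vcam1, Alcam, Cd44 and Cd47 rose at least 2-fold, beside 47.7%. The last 2 counts are near what the whole table did.

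After median centring the count was 4 higher and 0 lower at every time, the same 4 genes each time. The background was 15.8% higher and 17.4% lower at 1.5 hr, 7.21% and 3.26% at 6 hr, and 14.4% and 15.2% at 24 hr. No member then fell 2-fold from 1.5 to 6 hr, beside 2.74% of genes, or rose 2-fold from 6 to 24 hr, beside 2.02%. After GC centring 3 members, Vcam1, Icam1 and Cd44, were higher at each time and none was lower. The background was then 10.8% higher and 10.5% lower at 1.5 hr, 4.94% and 2.68% at 6 hr, and 10.5% and 8.99% at 24 hr. The median log2 ratio of the 7 members was 2.17, 0.52 and 1.78 as deposited, beside 0.44, -0.74 and 0.10 over all genes. Pairs of comparisons against the untreated library share that library.

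**Figure D3:**
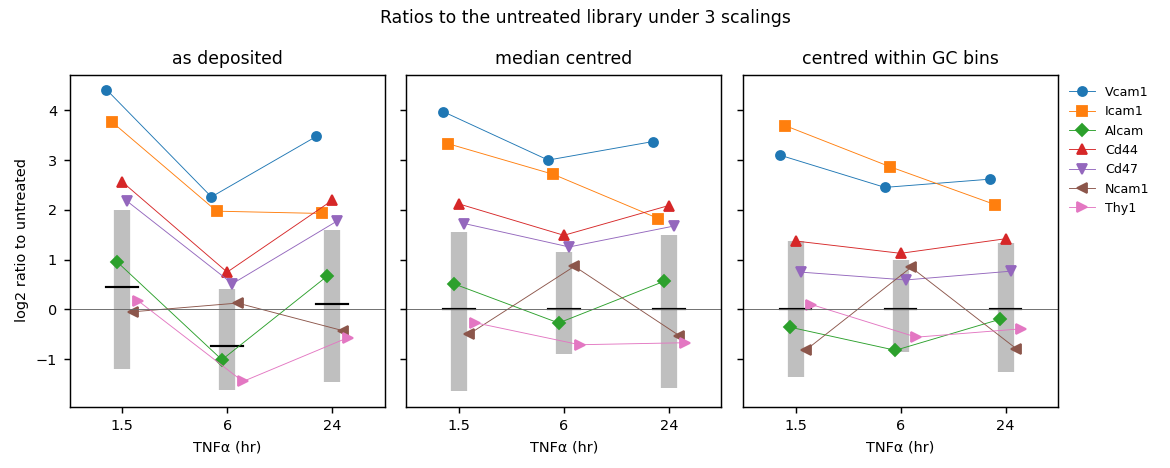
Log2 ratios of the 7 members to the untreated library (vertical axis) at 1.5, 6 and 24 hr under 3 scalings, with grey bars over coding genes above the floor, leaving out the highest and lowest 5% at either end, and black lines at their medians. Vcam1 and Icam1 lie above the grey bars at all times under each scaling, and Cd47 falls inside them after GC centring.

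The genes with the most similar course were found by the distance between the 3 median-centred log2 ratios, over the 4 libraries and among genes above the floor. Nearest to Vcam1 were Rgs16, a regulator of G protein signalling (distance 0.41), the death receptor Fas (0.78) and the interferon-inducible GTPase gene Gbp3 (0.83). Nearest to Icam1 were the NF-κB inhibitor gene Nfkbie (0.56), the cytokine Lif (0.57) and the transcription factor Irf1 (0.57). Cd44 and Cd47 had closer neighbours. Those of Cd44 were Rap1b, Ssbp1 and Tmem123, from 0.13 to 0.18, and those of Cd47 included Ppid (0.027) and Ppa1 (0.11). Rap1b, Ssbp1, Tmem123 and Ppid have between 39.9% and 43.0% GC, and Ppa1 has 49.7%. Nearest to Ncam1 were Srsf11, 9230105E10Rik and Zfp598, and nearest to Thy1 were Kirrel, Ctla2a and the ribosomal protein gene Rps27a. Most neighbours named for Vcam1, Icam1, Cd44 and Cd47 passed the floor, a mean over all libraries, through their treated libraries. Before treatment Rgs16, Fas and Gbp3 stood at 71.2, 16.0 and 13.4 units, and Nfkbie and Lif at 43.0 and 35.3. Ssbp1, Tmem123 and Ppid stood at 32.7, 54.9 and 67.5, and Rap1b just below 100. Irf1 and Ppa1 were above 100, at 114 and 141, as were all those named for Ncam1 and Thy1.

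Other genes of leukocyte trafficking were mostly below the floor. Of 21 such genes, which include the selectins Sele and Selp and the endothelial molecules Icam2 and Pecam1, 2 were above the floor. Cx3cl1, a membrane-bound chemokine that also holds leukocytes, went from 80.3 units to 829, 154 and 168 in order of time, log2 ratios of 3.37, 0.94 and 1.07. It was below the floor before treatment and passed it through its treated libraries. The 1 gene of this list at or above 100 units before treatment did not rise 2-fold at 1.5 hr. Below the floor, and named after their values were seen, the selectin gene Sele went from 0.325 units to 18.8, 4.06 and 4.25, and Madcam1 from 0.668 to 12.3, 17.6 and 14.0, both near 0 before treatment. Others below the floor fell at 6 hr, Cd99l2 from 86.5 units to 42.1 and Selplg from 31.6 to 12.7. With no floor, 47 genes of the 5 gene lists used here were at least 2-fold higher at 1.5 hr and 9 lower, beside 29.5% and 17.4% of all coding genes. At 6 hr 18 were higher and 31 lower, beside 5.09% and 39.3%. The 5 lists hold 21, 17, 18, 23 and 16 genes, the last being the textbook TNF and NF-κB targets. All of these 16 were among the 47, so the 47 are not a count of trafficking genes. With no floor a gene at 0 before treatment and above 0 later also counted as higher, such as Icam2, at 0.797 units at 1.5 hr. Mcam went from 203 units to 316, 104 and 142. After median centring Cx3cl1 was at 2.92, 1.68 and 0.96.

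Among 17 integrins and counter-receptors of the members, 6 were above the floor. Itgb1, the β chain of VLA-4 and of many matrix receptors, went from 959 units to 4410, 1330 and 2830, log2 ratios of 2.20, 0.47 and 1.56. Itgav, the αv chain, went from 69.2 to 252, 93.2 and 179, log2 ratios of 1.87, 0.43 and 1.38. Itgav was below the floor before treatment and passed it through its treated libraries. Of the 5 genes of this list at or above 100 units before treatment, 1 was at least 2-fold higher at 1.5 hr. Above the floor Itgb1 and Itgav, 2 of 6, were at least 2-fold higher as deposited at 1.5 hr, near the 29.8% of all genes. They were so at 24 hr too, beside 16.8%. After median centring both were at least 2-fold higher at each time, beside 15.8%, 7.21% and 14.4%. Their transcripts have 44.8% and 43.5% GC, and after GC centring Itgb1 was at 1.01, 0.85 and 0.79 and Itgav at 0.55, 0.62 and 0.52. The other 4 were below 2-fold at 1.5 and 24 hr. These were Itgb3, Itgb5, the Cd47 receptor gene Sirpa and the Cd47 ligand gene Thbs1, which went from 6210 units to 8720, 3780 and 6630. At 6 hr Itgb5 and Sirpa were at least 2-fold lower as deposited (log2 ratios -1.46 and -1.42) and not after median centring (-0.72 and -0.68). These 2 of 6 are near the deposited share of all genes, 31.5%. Below the floor, and named after their values were seen, Itgb7 went from 28.2 units to 5.23, 12.1 and 3.77. Muc1 went from 75.1 to 15.8, 44.3 and 17.4, while Itga4 went from 21.1 to 60.2, 24.3 and 64.4.

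Of 18 genes of hyaluronan turnover and Cd44 binding 8 were above the floor, and 6 of them were at least 2-fold higher at 1.5 hr, 4 after median centring and 1 after GC centring, beside 29.8%, 15.8% and 10.8% of all genes. The 1 of 8 is near the background. It was Hyal2, a hyaluronidase gene, which went from 105 units to 403, 90.2 and 249 and was at 2.27, 0.75 and 1.93 on the GC-centred log2 scale. The Cd44 ligand gene Spp1 (osteopontin) went from 18900 units to 63700, 14300 and 36100. The proteoglycan gene Vcan went from 172 to 475, 139 and 282. Msn (moesin), which links Cd44 to actin, went from 1160 to 3700, 1500 and 3800, and was at least 2-fold higher at each time after median centring. Before treatment 8 genes of this list stood at or above 100 units, and 5 of them passed 2-fold upward at 1.5 hr. Has1, a hyaluronan synthase gene, was among them but missed the floor, which averages treated and untreated libraries. Named after its values were seen, Has1 went from 154 units to 41.8, 30.1 and 35.9. Conversely, 1 gene above the floor was below it before treatment.

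Of 23 other adhesion genes of the immunoglobulin superfamily 6 were above the floor. Nptn (log2 ratio 1.41) and Mpzl1 (1.33) were at least 2-fold higher at 1.5 hr, and these 2 of 6 are near the 29.8% of all genes. None was higher at 1.5 hr after median centring, beside 15.8%, and none was at 24 hr as deposited, beside 16.8%. At 6 hr Igsf8 and Mpzl1, 2 of 6, were at least 2-fold lower as deposited, near the 31.5% of all genes. Mpzl1 was at -1.20 and, after median centring, at -0.46. Igsf8 went from 441 units to 370, 132 and 246. At 6 hr it was just past 2-fold lower after median centring, beside 3.26% of all genes, and not after GC centring (-0.78). Pvrl2 (nectin-2) went from 925 units to 680, 565 and 739.

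For scale, of 16 textbook TNF and NF-κB targets 13 were above the floor. These 13 were at least 2-fold higher at 1.5 hr under each of the 3 scalings, beside 29.8%, 15.8% and 10.8% of all genes. The floor is a mean over treated and untreated libraries, and 6 of the 13 were below it before treatment and passed through the libraries where they were high. Of the 16 genes 7 were at or above 100 units before treatment, and each of the 7 passed 2-fold at 1.5 hr as deposited. The median log2 ratio of these 13 at 1.5, 6 and 24 hr was 3.62, 2.36 and 2.43. As deposited, that of Vcam1 was higher than this median at 1.5 and 24 hr, and that of Icam1 at 1.5 hr. After GC centring the median was 3.54, 2.74 and 1.95, Vcam1 was above it at 24 hr only, and Icam1 was above it at all 3 times. The chemokine gene Ccl2 went from 187 units to 18100, 4970 and 13500, Ccl7 from 271 to 7930, 2680 and 5450, and Cxcl10 from 7.64 to 762 at 1.5 hr and 126 at 24 hr. Tnfaip3 (A20), a feedback inhibitor of NF-κB, went from 7.13 units to 399, 70.8 and 149.

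**Figure D4:**
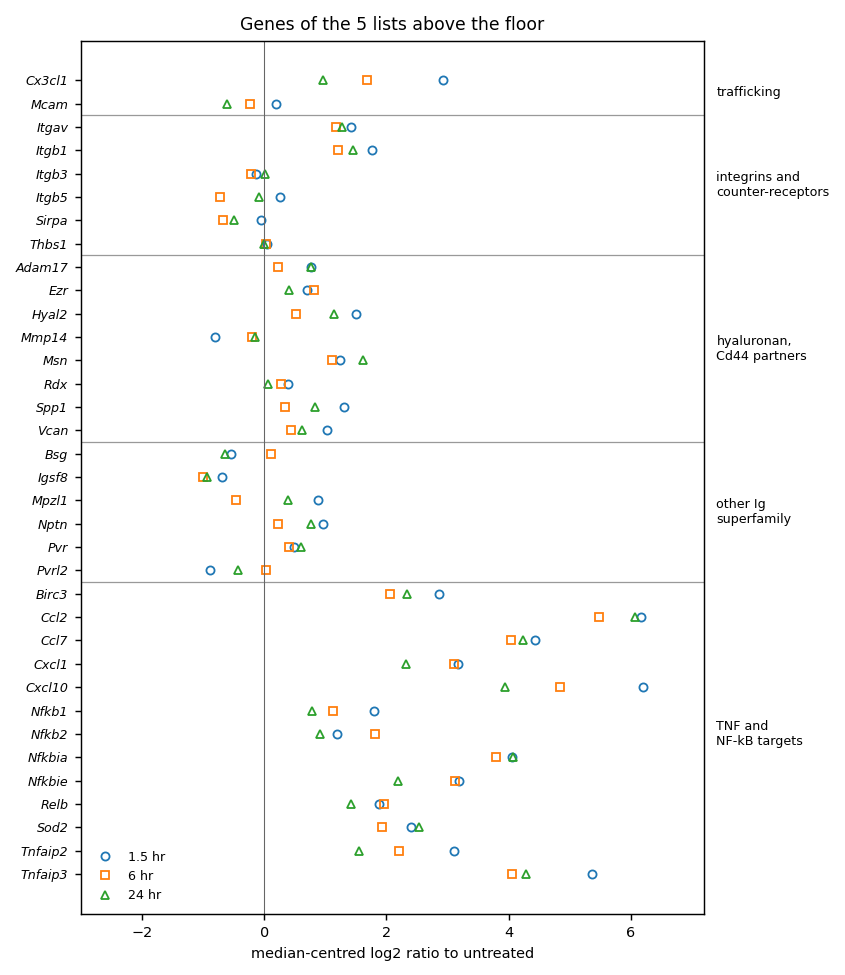
Median-centred log2 ratios to the untreated library (horizontal axis) at 1.5 hr (circles), 6 hr (squares) and 24 hr (triangles) for the genes above the floor in the 5 lists named at the right. The integrin, hyaluronan and immunoglobulin superfamily genes lie within 2 of 0, while Ccl2 lies at 6.16 at 1.5 hr.

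In untreated cells 6 of the 7 members had an H3K4me3 peak covering the annotated start. Of 5928 coding genes above the floor with an annotated start, 88.2% had a peak covering it and 89.1% a peak within 1 kb of it. The peak of Vcam1 (chr3:115827912-115833190) was 5279 bp long with 1222 tags and a 63.3-fold enrichment, although the gene stood at 46.2 units. Vcam1 itself lies on the minus strand at chr3:115812938-115832606. The other peaks were at Alcam (5728 bp, 2543 tags, 35.7-fold), Cd44 (4598 bp, 2481 tags, 56.5-fold), Cd47 (5827 bp, 1756 tags, 27.5-fold), Ncam1 (4576 bp, 2252 tags, 65.6-fold) and Thy1 (5897 bp, 1433 tags, 40.7-fold). Alcam, the lowest of the members in RNA, had more tags than the peaks of 93.2% of expressed genes, and Thy1, the highest, more than 56.3%. By fold enrichment the order was another one. Alcam was above 21.5% of these peaks, Cd47 above 7.67% and Thy1 above 31.7%. Cd44 was above 59.4%, Vcam1 above 67.3% and Ncam1 above 70.2%, and the median at expressed genes was 50.5-fold. The length of every one of the 6 peaks was above that of at least 70.1% of the peaks at expressed genes.

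Icam1 (chr9:20820404-20833241, plus strand) had no peak in the list. The nearest one ended 11783 bp upstream of its start, at Mrpl4, and another began 329 bp past its end, at Icam4 and Icam5. Of 3487 coding genes between 30 and 100 units before treatment, the range that holds Icam1 and Vcam1, 79.4% had a peak. The lowest fold enrichment in the deposited list was 20, so a weaker enrichment at Icam1 would not be listed. The mark was not profiled after TNFα in the data used here.

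**Figure D5:**
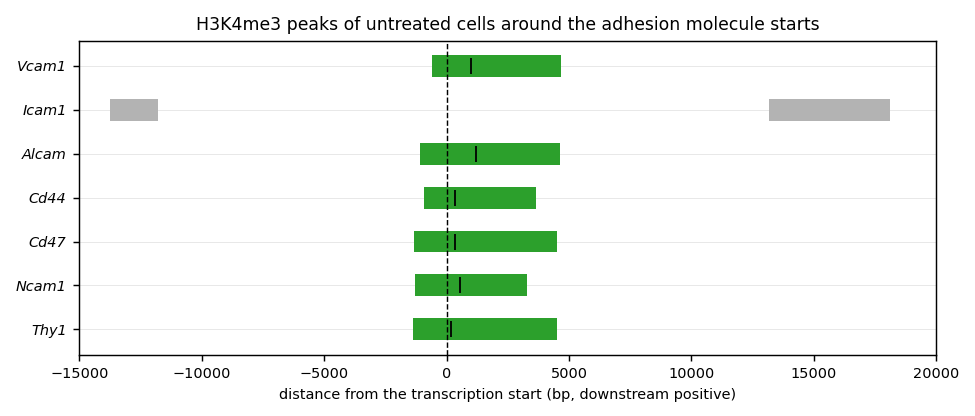
Spans of H3K4me3 peaks in untreated cells (horizontal bars) by distance in bp from the annotated start of each member (dashed line, downstream positive), with a black tick at the peak summit. Green bars cover the start and belong to 6 members, while the grey bars beside Icam1 are the 2 nearest peaks, 11783 bp upstream and 329 bp past the end of the gene.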

How the data were processed

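RNA was measured in 4 libraries, 1 per time, and H3K4me3 in 1 ChIP library with 1 input library. Samples were grouped by the treatment in the labels, and the 24 hr library, whose extract label describes ChIP, was used as RNA by its title, treatment and library source. The authors mapped RNA reads to mm9 with TopHat and deposited RPKM per RefSeq transcript, made by an in-house script, in columns R1 and R2, whose meaning is not stated. The columns carry library numbers, and these were matched to times through the study's own list of library depths. Total read counts per library are not in the table. Low values moved in fractions of the value of 1 read, so whole reads could not be recovered. Numbers of reads given in the text are approximate.

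For ChIP the authors used Bowtie for mapping and MACS for peaks, and each deposited peak has a tag count, a fold enrichment (ratio), a score made from the p-value and an FDR in percent.

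R1 and R2 were averaged, with no pseudocount, and ratios were taken to the untreated library. Background and list genes counted had a mean over the 8 columns above 100 deposited units (the floor). The 7 members were counted with or without reaching it, and Alcam did not. A call was a 2-fold difference. GC content was that of the longest GENCODE coding transcript, found for 98.0% of genes above the floor. Starts and sequences were read from the mm9 genome and its GENCODE annotation. A peak counted within 1 kb of the start. Named genes were all members, the 3 nearest genes to each member above the floor, from each list the 4 genes with the largest median-centred ratio, and every integrin or counter-receptor above the floor. Some list genes below the floor were also named, after their values were seen. The Euclidean distance was used for nearness. Some genes of the marker lists and of the nearest genes are not reported here. The members and lists were chosen with earlier results of these data known. Scripts were tested on simulated data. Python 3.11.15, numpy 2.4.6, pandas 2.3.3 and matplotlib 3.10.9 were used. The alternatives were other scalings, pseudocounts, floors, folds, single columns and other peak limits.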

Additional observations from a re-analysis of the deposited data

Results flagged for a closer look

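Results are listed here when both columns moved one way at one time and the opposite way at another. The differences between times were not tested, since each time has 1 library. Alcam had log2 ratios to untreated of 0.96, -1.01 and 0.67, in the order 1.5, 6 and 24 hr. Thy1 had 0.18, -1.45 and -0.57. The Ncam1 transcript NM_010875 had 0.92, -1.06 and 0.29. The median log2 ratio of all coding genes above the floor had the same signs at 1.5 and 6 hr, 0.44 and -0.74. After median centring Thy1 stood below 0 at all 3 times (-0.26, -0.71 and -0.67), Alcam kept both signs (0.52, -0.27 and 0.56), and so did NM_010875 (0.47, -0.32 and 0.19). After GC centring Alcam stood below 0 at all 3 times (-0.36, -0.82 and -0.19), and Thy1 stood above 0 at 1.5 hr (0.10) and below it later (-0.56 and -0.39). No group had the 4 samples needed to look for a sample far from the others.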

How the results depend on the processing

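Each result was recomputed under every alternative chosen for it. Of 168 log2 ratios of members, 111 came from alternatives that could move them further than the columns R1 and R2 lay from their mean. Of these 25 moved by less than that, 86 by more, and no ratio past 2-fold changed sign. For some alternatives no such change was possible. A pseudocount cannot change a sign, and the largest median subtracted in median centring, -0.74 at 6 hr, is short of 2-fold. Of 60 counts of members 51 stayed within 1.5 times the value given. The count higher at 6 hr went from 2 to 4 with median ratio scaling and with equal sums. The count lower at 6 hr went from 2 to 0 with either of these, with GC bins and at 3-fold, and to 1 with a pseudocount of 10 or 100 and with R1 alone. The number of members highest at 1.5 hr went from 6 to 3 within GC bins and to 4 with median ratio scaling or equal sums. Peak settings kept 6 members, and the share of genes with a peak ran from 88.2% to 91.0%.

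The share of coding genes at least 2-fold higher at 1.5 hr (29.8%) was 15.8% with median ratio scaling, 10.8% within GC bins, 16.8% with a pseudocount of 100 and 12.4% at 3-fold. The share lower at 1.5 hr (7.97%) was 17.4% with median ratio scaling, 12.9% with equal sums, 4.21% with a pseudocount of 100, 17.4% with no floor, 16.6% at 1.5-fold and 2.05% at 3-fold. The share higher at 6 hr (1.83%) was 7.21% with median ratio scaling, 8.51% with equal sums, 4.94% within GC bins, 0.992% with a pseudocount of 100, 5.09% with no floor, 3.55% at 1.5-fold and 0.909% at 3-fold. The share lower at 6 hr (31.5%) was 3.26%, 2.21% and 2.68% with the 3 scalings in that order, 12.6% with a pseudocount of 100, 61.1% at 1.5-fold and 5.92% at 3-fold. The share higher at 24 hr (16.8%) was 10.5% within GC bins, 7.45% with a pseudocount of 100, 31.0% at 1.5-fold and 5.21% at 3-fold. The share lower at 24 hr (12.8%) was 7.09% with a pseudocount of 100, 22.1% with no floor, 24.2% at 1.5-fold and 3.72% at 3-fold.

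Over the 5 gene lists together, the TNF and NF-κB targets included, genes higher at 1.5 hr went from 24 to 47 with no floor. Genes lower at 1.5 hr went from 0 to 1 at a floor of 50 and 9 with none. Genes higher at 6 hr went from 12 to 7 with a pseudocount of 100 and at 3-fold. Genes lower at 6 hr went from 4 to 1 with median ratio scaling, 0 with equal sums or GC bins, 2 with a pseudocount of 100 or a floor of 200, 9 at a floor of 50, 31 with no floor, 10 at 1.5-fold and 1 at 3-fold. Genes higher at 24 hr went from 17 to 34 with no floor and 11 at 3-fold, and genes lower from 0 to 1 at a floor of 50 or at 1.5-fold and 16 with no floor. The cause of these moves was not tested, other than that a lower floor adds genes and another fold moves the threshold. No paired analysis was possible because each time has 1 library and the labels give no replicate numbers.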
